A study of Mus musculus with 3 samples.

Results

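CpG-dense promoters were examined as stretches of 1 kb in mouse spermatogonia. The autosomes were cut into adjoining tiles of 1 kb, and a tile was kept when at least 40 different CpG positions in it were listed in any of the libraries and its centre lay within 2 kb of an annotated RefSeq transcript start. Of 2280133 autosomal tiles with a listed CpG, 15503 met this rule, and 15423 of these had at least 10 calls in each library and are the members described here. The other 80 had fewer than 10 calls in *Dnmt3l* KO and enough calls in WT and *Pld6* KO. The members lay near the starts of 13884 genes. The centre was within 500 bp of a start in 11492 members (74.5%) and more than 1 kb away in 1085 (7.03%). A start of a curated transcript lay inside 10267 members (66.6%), a predicted or small-RNA start alone inside 1225, and no start inside 3931 (25.5%), so that the last of these were neighbours of a start rather than its site.

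Genomic DNA came from spermatogonia of mice at postnatal day 7 (P7), of the strain C57BL6/J, sorted with an antibody against the surface protein EpCAM. The genotypes were WT, *Pld6* KO and *Dnmt3l* KO. The methods name biological replicates of every genotype, those of WT being mice with both *Pld6* alleles intact, *Pld6* heterozygotes and *Dnmt3l* heterozygotes. One list of sites per genotype was analysed and is called a library here. Whether a list holds a single replicate or several is not given in the sources used here. No test between genotypes was therefore made: what sets genotypes apart and what sets libraries apart cannot be told apart. Values given as a series of 3 without names are those of WT, *Pld6* KO and *Dnmt3l* KO, in this order.

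DNA methylation is set anew in male germ cells before birth by the *de novo* methyltransferases. DNMT3L is a partner of these enzymes without catalytic activity of its own, and PLD6 is an enzyme on the mitochondrial surface that is needed to make piRNAs, the small RNAs that guide silencing of retrotransposons. CpG-dense promoters, often called CpG islands, are known to stay free of methylation in most cells, except for imprinted promoters on 1 parental allele, promoters on the inactive X chromosome and a set of germ cell genes in somatic tissue.

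The sequences below carry the contrasts described in the following paragraphs. They were taken from the GRCm38.p6 reference (mm10) of RefSeq, are written 5′ to 3′ in lower case, and have every CG in capitals. The tiles near *Gm26788* and in *Srrm2* are shown as coding sequence that was methylated in WT and was, respectively, low and still at 0.5 or more in *Dnmt3l* KO. For *Dhx16*, the methylated tile and the unmethylated promoter are shown side by side. The promoters of *Sycp3* and *Dazl* stand for germ cell genes. Those of *Gm51464* and *Tmem267* stand for tiles with a lower and a higher level in *Pld6* KO than in WT.
Middle of the methylated tile near *Gm26788*, chr1:34179351-34179650, plus strand: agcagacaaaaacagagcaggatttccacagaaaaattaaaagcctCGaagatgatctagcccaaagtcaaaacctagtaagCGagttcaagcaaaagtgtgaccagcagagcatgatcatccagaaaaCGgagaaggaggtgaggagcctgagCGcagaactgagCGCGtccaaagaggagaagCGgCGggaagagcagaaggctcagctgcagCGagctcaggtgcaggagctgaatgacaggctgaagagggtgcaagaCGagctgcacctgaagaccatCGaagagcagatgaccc
Middle of the methylated tile in *Srrm2*, chr17:23819351-23819650, plus strand: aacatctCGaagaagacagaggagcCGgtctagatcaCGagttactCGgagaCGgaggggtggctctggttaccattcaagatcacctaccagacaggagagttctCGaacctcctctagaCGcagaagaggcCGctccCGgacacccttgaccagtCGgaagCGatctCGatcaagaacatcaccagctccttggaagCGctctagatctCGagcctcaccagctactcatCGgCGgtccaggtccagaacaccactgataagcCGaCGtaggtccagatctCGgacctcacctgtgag
Middle of the methylated tile in *Dhx16*, chr17:35881351-35881650, plus strand: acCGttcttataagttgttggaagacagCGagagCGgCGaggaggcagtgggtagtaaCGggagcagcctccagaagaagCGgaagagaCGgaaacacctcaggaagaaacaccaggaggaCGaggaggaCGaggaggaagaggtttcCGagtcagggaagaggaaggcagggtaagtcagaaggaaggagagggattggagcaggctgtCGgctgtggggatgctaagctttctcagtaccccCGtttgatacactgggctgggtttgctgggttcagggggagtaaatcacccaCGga
Promoter of *Dhx16*, chr17:35879528-35879827, plus strand: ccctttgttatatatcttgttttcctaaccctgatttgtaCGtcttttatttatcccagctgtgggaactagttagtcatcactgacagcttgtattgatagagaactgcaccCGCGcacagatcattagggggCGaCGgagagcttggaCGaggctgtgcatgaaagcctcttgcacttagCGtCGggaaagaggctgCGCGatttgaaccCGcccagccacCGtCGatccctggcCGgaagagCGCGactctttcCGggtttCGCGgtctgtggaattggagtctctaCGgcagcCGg
Promoter of *Sycp3*, chr10:88459337-88459636, plus strand: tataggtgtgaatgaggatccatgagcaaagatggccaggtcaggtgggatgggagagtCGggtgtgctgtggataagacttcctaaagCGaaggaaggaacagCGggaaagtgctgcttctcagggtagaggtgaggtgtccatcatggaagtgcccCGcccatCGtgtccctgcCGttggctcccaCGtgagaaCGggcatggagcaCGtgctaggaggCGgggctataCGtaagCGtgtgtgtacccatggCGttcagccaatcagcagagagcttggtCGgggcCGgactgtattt
Promoter of *Dazl*, chr17:50293571-50293870, minus strand: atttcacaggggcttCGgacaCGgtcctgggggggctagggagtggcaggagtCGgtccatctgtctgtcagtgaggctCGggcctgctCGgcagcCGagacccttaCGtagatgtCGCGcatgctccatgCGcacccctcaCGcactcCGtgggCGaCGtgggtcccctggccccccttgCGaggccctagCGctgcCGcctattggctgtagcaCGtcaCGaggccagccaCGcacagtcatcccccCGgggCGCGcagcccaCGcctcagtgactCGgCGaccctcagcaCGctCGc
Promoter of *Gm51464*, chr7:48137145-48137444, plus strand: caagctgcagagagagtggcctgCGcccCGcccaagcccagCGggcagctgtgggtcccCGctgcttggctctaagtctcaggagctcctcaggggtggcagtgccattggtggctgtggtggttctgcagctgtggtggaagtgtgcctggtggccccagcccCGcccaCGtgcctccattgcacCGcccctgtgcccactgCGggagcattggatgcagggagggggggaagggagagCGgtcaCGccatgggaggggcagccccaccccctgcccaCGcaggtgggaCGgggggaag
Promoter of *Tmem267*, chr13:119488223-119488522, plus strand: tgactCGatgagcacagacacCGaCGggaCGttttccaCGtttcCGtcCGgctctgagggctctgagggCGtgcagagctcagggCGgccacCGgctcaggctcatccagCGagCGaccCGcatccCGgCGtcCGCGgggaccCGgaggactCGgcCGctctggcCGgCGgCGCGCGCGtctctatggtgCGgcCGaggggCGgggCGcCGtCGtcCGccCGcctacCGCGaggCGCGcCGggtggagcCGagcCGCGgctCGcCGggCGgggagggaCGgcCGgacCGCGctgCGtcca

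Within these stretches of 300 bases, the 11 CpGs near *Gm26788* had a WT methylation level (methylated calls divided by all calls) of 1.0 from 14 calls, and the 19 CpGs in *Srrm2* one of 0.891 from 46 calls. In *Dhx16*, the 13 CpGs of the tile were at 1.0 in WT (23 calls), whereas the 21 CpGs of the promoter of the same gene, further upstream, were at 0.0130 (77 calls). The promoter of *Sycp3* has 15 CpGs and that of *Dazl* 28, and their WT levels were 0.366 (41 calls) and 0.0349 (86 calls). The *Tmem267* promoter has 50 CpGs, more than any of the other stretches. It was at 0.237 in WT (59 calls) and 0.521 in *Pld6* KO (447 calls), and the part of this unequal depth was not tested. The *Gm51464* promoter has 12 CpGs and was at 0.316 in WT (19 calls) and 0.0588 in *Pld6* KO (34 calls). Its Wilson intervals overlapped (0.154 to 0.540 and 0.0163 to 0.191), so that this stretch alone does not set the libraries apart.

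As a check of the labels, runs of CpG positions without any call were looked for at the targeted genes. At *Pld6*, 62 successive listed positions had 163 calls in WT, 65 in *Dnmt3l* KO and 0 in *Pld6* KO. At *Dnmt3l*, 52 successive positions had 0 calls in *Dnmt3l* KO, against 88 in WT and 171 in *Pld6* KO. *Dnmt3l* has no member tile. The median number of calls of a member was 159, 197 and 60, and 12 members (0.0778%) held a site with more than 20 calls in a library. The 95% Wilson intervals given with levels cover counting error only, since calls of the same read are linked and PCR copies were not examined.

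CpG-dense promoters were almost free of methylation in every genotype. WT had a pooled level over the members of 0.0127 (95% interval 0.0125 to 0.0128), *Pld6* KO one of 0.0160 (0.0159 to 0.0162) and *Dnmt3l* KO one of 0.00586 (0.00572 to 0.00601). The level was under 0.1 in 98.5%, 97.9% and 99.7% of the members. The same measure over all 603716 autosomal tiles with enough calls was 0.612, 0.649 and 0.280. *Dnmt3l* KO was thus below WT and *Pld6* KO above it, and this order held on each of the 19 autosomes and under each of the 11 ways of computing a pooled level. Relative to WT, the level in *Dnmt3l* KO was 0.462 over the members and 0.458 over all autosomal tiles. In *Pld6* KO it was 1.27 over the members and 1.06 over all autosomal tiles. The ratio of 1.06 is weighted by calls and does not describe the median autosomal tile. That tile was at 0.88 in WT and 0.871 in *Pld6* KO. The bisulfite conversion rate stated in the methods leaves a share of cytosines unconverted that is close to the pooled levels of the members. This share lies above the pooled level of *Dnmt3l* KO. The part of unconverted cytosines in the levels of the members, and in their ratios between genotypes, was not tested.

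**Figure D1:**
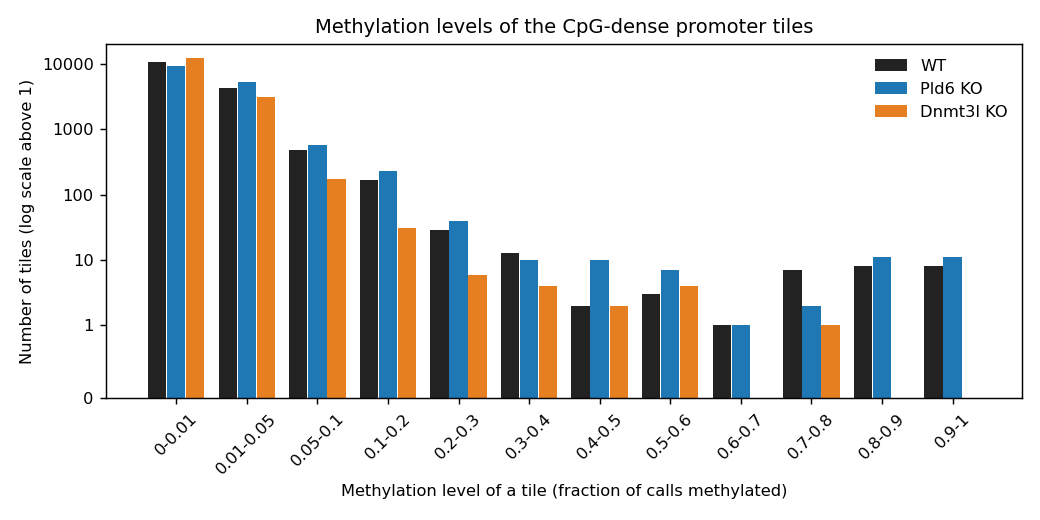
Number of CpG-dense promoter tiles (vertical axis, log scale above 1) by methylation level (horizontal axis, fraction of calls methylated) in WT, *Pld6* KO and *Dnmt3l* KO. Most of the 15423 tiles sit under 0.01, and a small second group above 0.7 is seen in WT and *Pld6* KO, with 1 tile there in *Dnmt3l* KO.

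The median member was at 0.00559, 0.00735 and 0. No methylated call at all was seen in 38.5%, 24.5% and 74.8% of the members. These shares follow the number of calls as well as the level, since *Dnmt3l* KO had the fewest calls and *Pld6* KO the most, and 3 methylated calls in a tile of median depth already make 5.0% in *Dnmt3l* KO against 1.89% in WT. The pooled levels do not depend on depth in this way. The 15317 members that were under 0.2 in every library still had pooled levels of 0.00976, 0.0122 and 0.00486, in the same order.

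A single tile weighed on these levels. The tile at *Sfi1*, which encodes a centrosome protein, held 4815, 7794 and 2293 calls, with up to 283 calls at 1 site, and gave 9.98%, 7.23% and 7.27% of all methylated calls of the members. Without it the pooled levels were 0.0114, 0.0149 and 0.00545. Whether its reads came from 1 locus or from several similar ones was not tested.

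The methylation level changed with the density of CpGs and with the distance from the start. In WT it was 0.0252 in the 4052 members with 40 to 49 CpGs, 0.0201 with 50 to 59, 0.00801 with 60 to 79, 0.00585 with 80 to 99 and 0.00475 in the 1462 members with at least 100. The level of the class of 50 to 59 CpGs was raised by the *Sfi1* tile, which it holds. *Pld6* KO ran from 0.0334 in the sparsest to 0.00772 in the densest members, and *Dnmt3l* KO from 0.00903 to 0.00395. The WT and *Dnmt3l* KO levels of the densest members were below the share left unconverted, and its part in this relation was not tested. By distance, the WT level was 0.0106 where the centre was within 249 bp of a start, 0.0142 from 500 bp to 1 kb and 0.0467 from 1500 to 2000 bp. The corresponding levels were 0.0131, 0.0181 and 0.0642 in *Pld6* KO and 0.00513, 0.00667 and 0.0155 in *Dnmt3l* KO. Both relations were also seen together: among members with 40 to 49 CpGs, the WT level was 0.0181 within 500 bp of a start and 0.0379 beyond, and among those with at least 100 CpGs it was 0.00456 and 0.00562. The class of 50 to 59 CpGs within 500 bp holds the *Sfi1* tile and was the exception, at 0.0207 within and 0.0184 beyond.

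**Figure D2:**
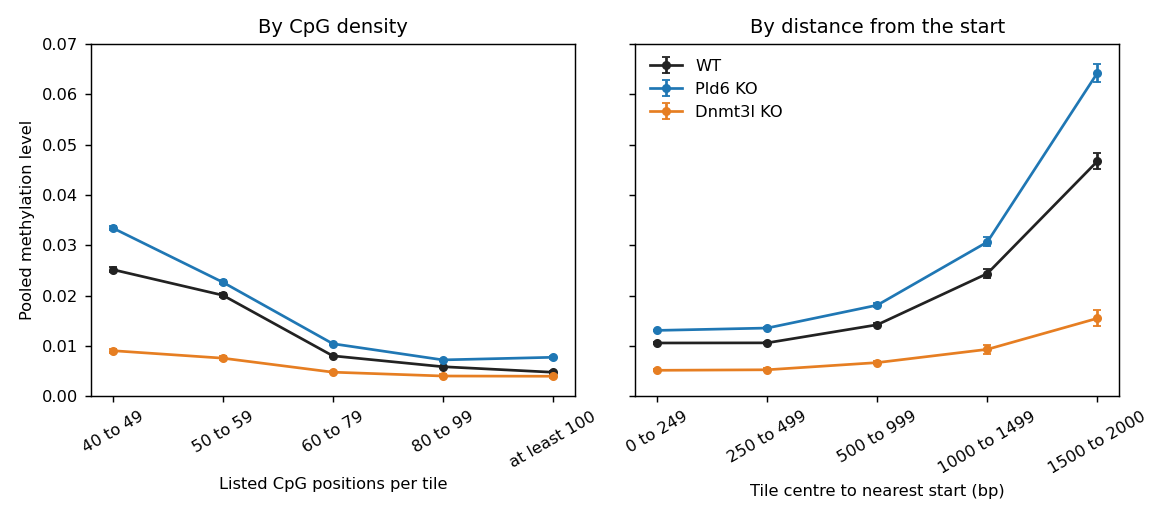
Pooled methylation level (vertical axis) of the members by number of listed CpG positions (left) and by distance of the tile centre from the nearest start (right, bp), with 95% Wilson intervals. The WT level falls from 0.0252 to 0.00475 with CpG number and rises from 0.0106 to 0.0467 with distance, with *Pld6* KO above and *Dnmt3l* KO below it throughout.

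At a finer scale, the CpGs of the members from the start to 200 bp downstream had the lowest WT levels, 0.00594 and 0.00590 in successive bins of 100 bp. The WT level was 0.0359 between 800 and 700 bp upstream, and 0.0208 between 700 and 800 bp downstream. Beyond the members, methylation returned within a few kb. In WT the pooled level of the tile 1 kb upstream of a member was 0.0779, that 2 kb upstream 0.383 and that 10 kb upstream 0.636. The downstream side was higher at each of these distances, at 0.106, 0.449 and 0.693. In *Dnmt3l* KO the flanks were lower, at 0.0234, 0.148 and 0.295 upstream and 0.0411, 0.216 and 0.368 downstream, so that the unmethylated stretch was set against a lower surrounding.

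**Figure D3:**
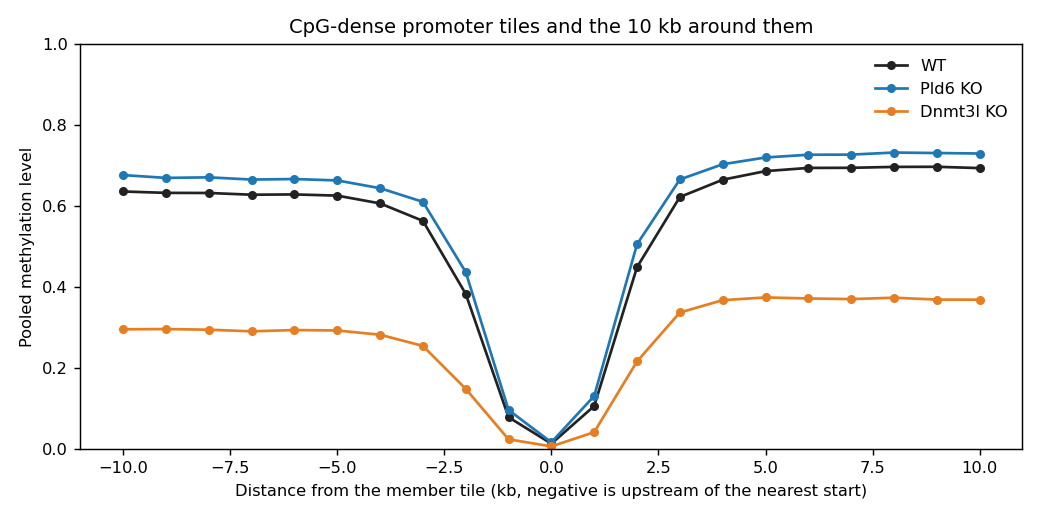
Pooled methylation level (vertical axis) of the member tiles at 0 and of the tiles up to 10 kb upstream (negative) and downstream (horizontal axis, kb) in each library. All libraries drop to near 0 at the member; at 10 kb downstream WT is at 0.693, *Pld6* KO at 0.729 and *Dnmt3l* KO at 0.368.

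Other tiles with many CpGs or near a start were more methylated than the members. The 2311 tiles with at least 40 CpGs farther than 2 kb from any start had pooled levels of 0.107, 0.154 and 0.0396. The 33946 tiles near a start with 15 to 39 CpGs were at 0.348, 0.416 and 0.140. At the limit of the rule, the 437 promoter tiles with 39 CpGs had a WT level of 0.0362, and the 466 members with 40 CpGs had one of 0.0283.

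A tile was called methylated at a level of at least 0.5. By this measure 27 of 15423 members were methylated in WT (0.175%, 95% interval 0.120 to 0.255). The number was 32 for *Pld6* KO (0.207%, 0.147 to 0.293) and 5 for *Dnmt3l* KO (0.0324%, 0.0138 to 0.0759). Without the tile at *Pld6* itself, which rests on 10 calls in *Pld6* KO, the number for *Pld6* KO was 31. Of all autosomal tiles with enough calls, 84.5%, 84.6% and 30.7% were methylated. The WT and *Pld6* KO sets had 24 tiles in common, which is 88.9% of the WT set and 75% of the *Pld6* KO set. Of the 5 tiles of *Dnmt3l* KO, 4 were methylated in WT and 5 in *Pld6* KO. The number depends on where the tiles begin: with tiles moved by 0.5 kb it was 42, 50 and 10.

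The methylated members were seldom at the site of a well-supported start. A curated start lay inside 1 of the 27 (*Sfi1*), a predicted or small-RNA start inside 5 and no start inside 21. Among the 10267 members with a curated start inside, 1 was thus methylated in WT (0.00974%) and 3 were in *Pld6* KO. None was in *Dnmt3l* KO, where 0 of 10267 tiles allows a share of up to 0.0292%, taking 3 counts as the limit (the upper Wilson bound is 0.0374%). All 27 lay mostly within an annotated gene, 17 consisted of coding sequence for more than 50% of their length, and 17 had the centre more than 1 kb from the nearest start. In 14 of the 27, the nearest start was an internal one, more than 1 kb from the outermost start of its gene. Over all members, 7.03% had the centre more than 1 kb from a start. Gene overlap, coding share and internal starts were not counted over all members. The CpG density of the 27 was at the low end of the members, with a median of 42 listed CpGs and an observed-to-expected CpG ratio of 0.531, against 61 and 0.735 over all members. Their GC content was close to that of all members, with medians of 58.1% and 60.1%.

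The 10 members with the highest WT levels ran from 0.980 to 0.877. The highest was a tile wholly within coding sequence of *Dst*, which encodes a cytoskeletal linker protein, 1336 bp upstream of the start of the long noncoding RNA *Gm26788* (0.980, 0.915 and 0.0893). The next was a tile 1722 bp downstream of the start of *Dhx16*, a helicase of pre-mRNA splicing, at 0.971, 0.913 and 0.130. The tile named after the microRNA gene *Mir6977* lies 1408 bp downstream of its start, within the receptor phosphatase gene *Ptprs*. It was at 0.966, 0.941 and 0.568. These tiles were at a like high level in WT and *Pld6* KO and differed widely in *Dnmt3l* KO. The tile of *Zmynd8*, a reader of histone marks, was at 0.937, 0.881 and 0.766, and only 1 of the 52 annotated transcripts of the gene starts there. That of *Srrm2*, a scaffold protein of nuclear speckles, has 61 CpGs, all in coding sequence, and was at 0.934, 0.93 and 0.564. The endocytic adaptor gene *Epn3*, the potassium channel gene *Kcnj4* and the spindle protein gene *Misp* followed with WT levels of 0.929, 0.924 and 0.919, and *Dnmt3l* KO levels of 0.30, 0.245 and 0.0541. The tile named after *Misp* lies 1518 bp upstream of a *Misp* start, within the gene *Palm*, and 52.1% of it is *Palm* coding sequence. *Gja4*, a connexin gene, and *Cit*, a kinase gene of cytokinesis, closed the 10 at 0.894 and 0.877.

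**Figure D4:**
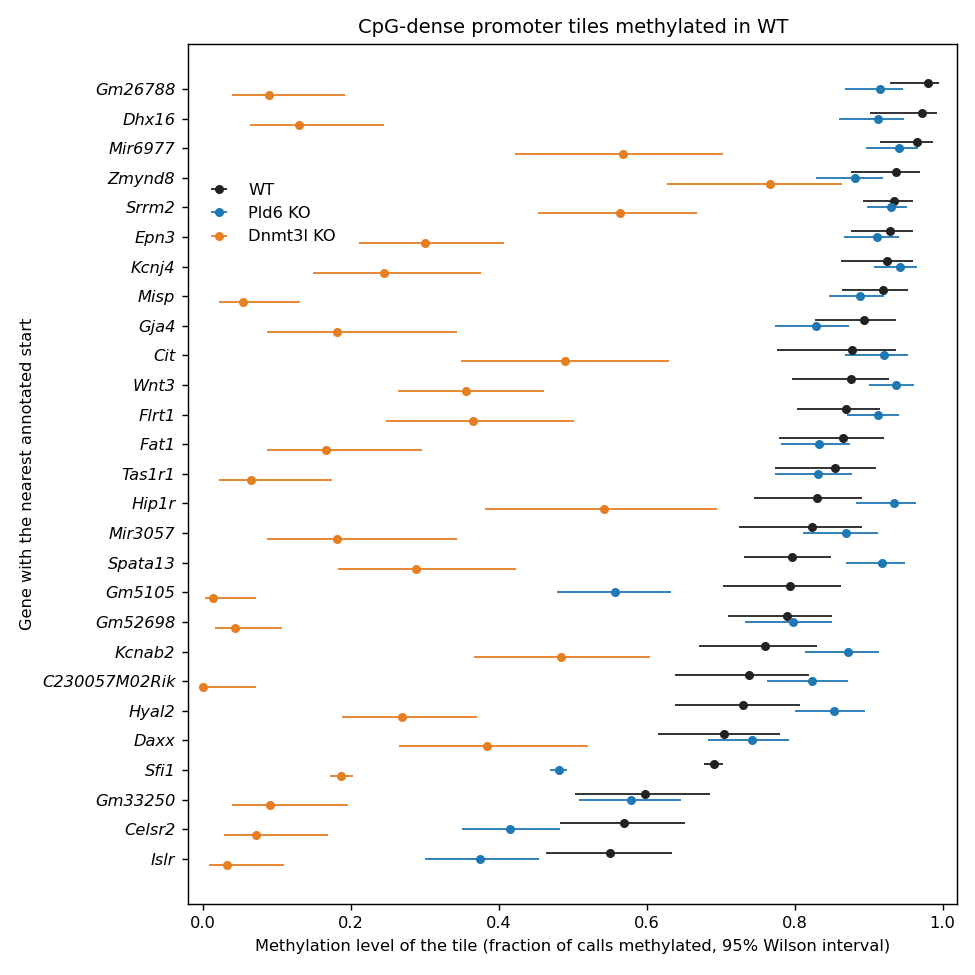
Methylation level (horizontal axis, with 95% Wilson intervals) of the 27 members at a WT level of at least 0.5, named by the gene with the nearest start (vertical axis). WT and *Pld6* KO points lie close together in most tiles, while *Dnmt3l* KO points range from 0 (*C230057M02Rik*) to 0.766 (*Zmynd8*).

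The tile that held the nearest start was methylated as well in most of these cases, and had too few CpGs to be a member there. Of the 21 methylated members without a start inside, this tile was under 0.2 in WT in 6, between 0.2 and 0.5 in 1 and methylated in 14. The 14 methylated start tiles had from 14 (*Srrm2*) to 37 (*Fat1*) listed CpGs, each below the minimum for a member. Over all 27 methylated members, the nearest start was a predicted one in 16. The 6 low start tiles were those of *Dhx16*, *Gja4*, *Wnt3*, *Hyal2*, *Daxx* and *Celsr2*, with from 27 (*Gja4*) to 92 (*Celsr2*) listed CpGs. For *Wnt3*, which encodes a secreted signal, the methylated tile was at 0.876 and lay 1561 bp downstream of the nearest start, and the start tile with 87 CpGs was at 0.0179. For *Daxx*, a histone chaperone, the values were 0.704 at 1899 bp and 0.00 in the start tile with 70 CpGs. For *Celsr2*, a cadherin, they were 0.569 at 1078 bp and 0.0212 in the start tile with 92 CpGs. The start tiles of these 3 genes were thus near 0 in WT.

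In *Dnmt3l* KO the methylated members were lower than in WT to unequal extents. Of the 27, 24 were lower than WT by at least 0.3, and the interval of the difference lay above 0 in each of the 27. The 27 were chosen by a high WT level, which by itself favours a lower level in another library. The corresponding share among autosomal tiles methylated in WT was not computed. Over all members, 31 were lower by at least 0.3 in *Dnmt3l* KO and 0 were higher by as much, where 69.1% and 0.0195% of all autosomal tiles were. Only the 42 members at a WT level of at least 0.3 could be lower by as much. Of all autosomal tiles with enough calls, 84.5% were at 0.5 or more in WT. The *Dnmt3l* KO level of the 27 had a median of 0.187 and ran from 0 to 0.766, and 9 were under 0.1. The largest difference from WT was that of the tile near *Gm26788* (0.890, interval 0.775 to 0.943), followed by *Misp* (0.865), *Dhx16* (0.842), the taste receptor gene *Tas1r1* (0.789) and *Gm5105* (0.780). The smallest were those of *Zmynd8* (0.171, interval 0.0553 to 0.313), the potassium channel subunit gene *Kcnab2* (0.275), the endocytosis gene *Hip1r* (0.287), *Daxx* (0.320) and *Srrm2* (0.370). Among the 27, *Zmynd8* was the only tile whose whole *Dnmt3l* KO interval (0.628 to 0.864) lay above 0.5. At the long noncoding RNA *C230057M02Rik*, all 26 annotated transcripts of the gene start within 2 kb of the centre of the tile. The tile was at 0.739 in WT (88 calls) and 0.824 in *Pld6* KO (187 calls), and none of 50 calls was methylated in *Dnmt3l* KO, with an upper bound of 0.0713.

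*Pld6* KO left the methylated members near the WT level. Their median was 0.854 in WT and 0.872 in *Pld6* KO, 15 were lower and 12 higher than in WT, and none was lower by 0.3. The interval of the difference held 0 in 18, lay above 0 in 5 and below 0 in 4. Over all members, 2 were lower than WT by at least 0.3 in *Pld6* KO, where 1.79% of all autosomal tiles were, and 4 were higher, where 1.39% were. As for *Dnmt3l* KO, only the 42 members at a WT level of at least 0.3 could be lower by as much.

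The 2 lower tiles were both of intermediate level in WT. At the noncoding transcript *6820431F20Rik*, the start of which lies inside the tile, WT was at 0.354 (127 calls), *Pld6* KO at 0.0287 (244 calls) and *Dnmt3l* KO at 0.00 (42 calls). At *Gm51464*, a predicted gene, it was 0.320 (75 calls), 0.0171 (117 calls) and 0.00 (38 calls). In these tiles both mutants were near 0, and the WT interval (0.277 to 0.441 and 0.225 to 0.432) did not reach either mutant interval. The 2 tiles were chosen by their difference between WT and *Pld6* KO, which by itself favours intervals that lie apart. The next largest differences were those of *Gm5105*, a noncoding RNA gene whose tile is coding sequence of the neighbouring *1110002E22Rik* (0.794, 0.557 and 0.0133), of *Sfi1* (0.691, 0.481 and 0.187) and of the cell adhesion gene *Mcam* (0.244, 0.0534 and 0.0769).

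The 4 higher tiles were chosen by their difference as well. Of these, that of *Pld6* rests on 10 calls. Its WT level was 0.00676 (148 calls at 53 sites), that of *Pld6* KO 0.80 (8 of 10 calls, at 3 sites) and that of *Dnmt3l* KO 0.0317 (63 calls). The run without calls begins inside this tile, so that the *Pld6* KO value describes only its remaining edge. At *Adcy6*, an adenylyl cyclase gene, the tile with an internal curated start was at 0.333 (87 calls), 0.846 (208 calls) and 0.0938 (32 calls), a difference of -0.513 between WT and *Pld6* KO (interval -0.613 to -0.395). The tile at *Akt1s1*, which encodes an inhibitor of the mTOR kinase complex, was at 0.155, 0.512 and 0.0714. That at the small-RNA gene *Gm51277*, in coding sequence of *Napepld*, was at 0.101, 0.411 and 0.0189. Other tiles under 0.2 in WT with a higher level in *Pld6* KO were those of *Cyth2* (0.140, 0.382 and 0.250), *Trim52* (0.155, 0.335 and 0.00) and *Fam78a* (0.168, 0.322 and 0.0938). By the size of the difference, *Akt1s1* and *Gm51277* were followed by *Tmem267* and *Shmt2*.

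*Tmem267* was the densest of the tiles named here, with 112 CpGs and the start 27 bp from the centre. It was at 0.323 (interval 0.277 to 0.373), 0.594 (0.564 to 0.622) and 0.0719 (0.0416 to 0.121). Its 1105 calls in *Pld6* KO were 3.08 times those in WT, against a median ratio of 1.23 over the members, and the part of this depth in the difference was not tested. *Shmt2*, which encodes a mitochondrial enzyme of serine metabolism, was the only methylated tile of *Dnmt3l* KO that was not methylated in WT. It was at 0.30 (130 calls), 0.558 (197 calls) and 0.50 (42 calls), with the tile of its start at 0.00610 in WT.

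A further 44 members were at 0.2 to 0.5 in WT. A curated start lay inside 12 of them, another start inside 5 and none inside 27. In *Dnmt3l* KO 35 of the 44 were under 0.1, and their median was 0.0384. Where the centre was more than 500 bp from the start, the tiles could be split into the part nearer to and the part farther from the start. In these 27 tiles the WT level was 0.228 in the near part and 0.365 in the far part, so that the far part was the higher one. In the 21 methylated tiles (0.5 or more in WT) at this distance, it was 0.820 and 0.832. Over all 3931 members at this distance, it was 0.0119 and 0.0313.

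Among the gene lists, no gene had a tile at 0.5 or more in WT. Promoters of germ cell genes that are silenced by methylation in the soma were the highest. Of 30 listed genes 16 had a member tile, and their pooled levels were 0.0794 (interval 0.0690 to 0.0911), 0.101 (0.0912 to 0.113) and 0.00822 (0.00417 to 0.0161). All 16 genes were above the pooled WT level of the members, as were 24.8% of the 13884 genes with a member. At 0 in *Dnmt3l* KO were 9 of the 16 (56.2%), against 67.5% of the 13884 genes, so that this count was not above the general share. *Sycp3*, a component of the synaptonemal complex that holds paired chromosomes together in meiosis, was the highest in WT. Its tile was at 0.321 (78 calls), 0.209 (91 calls) and 0.00 (66 calls). *Sycp1*, another part of the same complex, was instead at 0.0398, 0.210 and 0.0110. *Rpl10l*, a ribosomal protein gene of the male germ line, was at 0.171 in WT, and *Tdrd1* and *Mael*, which act in the piRNA pathway, were at 0.103 and 0.0964. *Dazl* and *Ddx4*, which encode RNA-binding proteins of germ cells, were at 0.0323 and 0.050 in WT and at 0.103 and 0.102 in *Pld6* KO, and none of their calls was methylated in *Dnmt3l* KO. The members of this list thus differed among themselves, and 8 of the 16 were higher in *Pld6* KO than in WT, where 55.3% of the 13884 genes were.

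Genes listed for imprinted promoters with methylation of maternal origin came next. Of 27 listed genes 23 had a member tile, and their pooled levels were 0.0407, 0.0596 and 0.00635. *Airn* was the highest in WT at 0.10 (90 calls), *Kcnq1ot1* was at 0.0885, *Gnas*, with 11 tiles, at 0.0541, *Peg3* at 0.0332 and *Mest* at 0.00968. In *Pld6* KO 16 of the 23 were higher than in WT, among them *Nnat*, at 0.0565 in WT and 0.108 in *Pld6* KO. *Peg3* and *Usp29* share their tiles, as do *Peg10* and *Sgce*. With such pairs counted once, 15 of 21 were higher (71.4%), against 55.3% of all genes with a member. A share above 55.3% was not particular to this list. Higher in *Pld6* KO were 13 of 16 spermatogonial genes, 3 of 4 genes of paternally methylated domains and 8 of 12 DNA methylation factors. So were 13 of 20 developmental regulators and 9 of 15 housekeeping genes. Only the germ cell genes, with 8 of 16, were below the share of all genes. The 4 genes of paternally methylated domains with a member (*Igf2*, *Dlk1*, *Rasgrf1* and *Zdbf2*) were at 0.0138 or less in WT.

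Promoters of both kinds are, by general knowledge, methylated in somatic cells and free of methylation in male germ cells. The lists take every member tile near a listed gene, such as 11 for *Gnas*, and not each of these need be such a promoter. Both kinds served as the check of the labelled cell type. Over the marker genes chosen for it, 8 of 10 imprinted genes had a member, at 0.0343, 0.0466 and 0.0103. The germ cell markers, 5 of 5, were at 0.0809, 0.153 and 0.00539. The levels were lowest in *Dnmt3l* KO for both sets. The part of other cells in the sorted samples in the levels of the members was not tested.

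**Figure D5:**
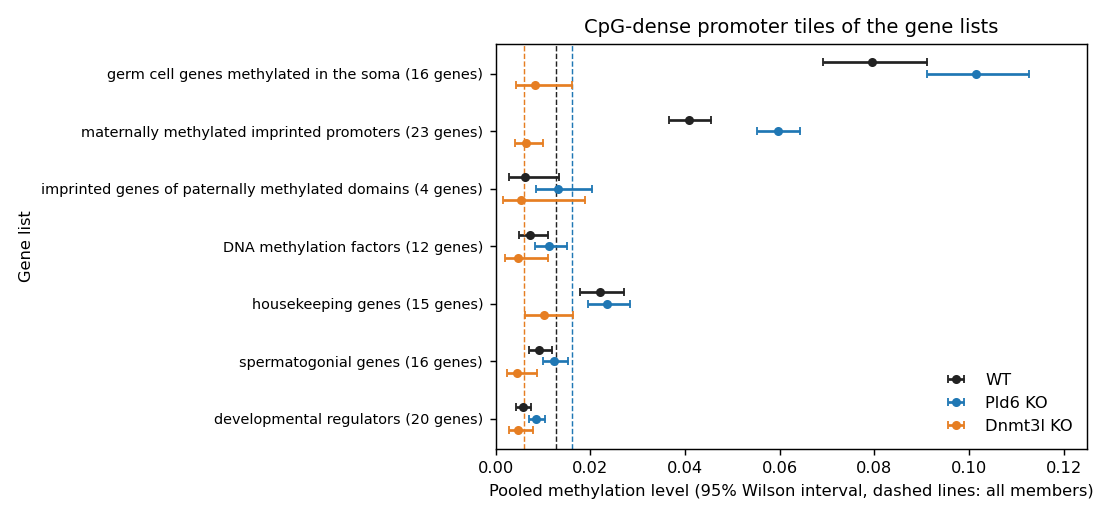
Pooled methylation level (horizontal axis, with 95% Wilson intervals) of the member tiles of 7 gene lists (vertical axis) in each library, with dashed lines at the level of all members. Germ cell genes (0.0794 in WT) and maternally methylated imprinted promoters (0.0407) lie above the WT line at 0.0127, and developmental regulators (0.00571) below it.

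The other lists were near or below the general level. Developmental regulators, transcription factors and signals of the embryo, had a member tile for 20 of 20 genes and were at 0.00571, 0.00852 and 0.00472. *Olig2*, a factor of neural progenitors, had the highest WT level among them at 0.0156. The 16 spermatogonial genes with a member were at 0.00914, 0.0123 and 0.00454, and *Stra8*, which is needed for entry into meiosis, was the highest at 0.118, 0.162 and 0.00. The 12 factors of DNA methylation were at 0.00729 in WT and 0.0112 in *Pld6* KO, where the *Pld6* tile is included. The 15 housekeeping genes had a median of 0.00510 in WT, and their pooled level of 0.0220 came mainly from *Eef2*, a translation elongation factor gene, at 0.154. In *Eef2* the tile 869 bp downstream of the start was at 0.319, while the tile of the start was at 0.00.

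Short motifs of promoter-binding factors were counted on both strands of the tiles as a description of their sequence. The E2F6-type motif GCGGGAA was present in 23.1% of all members and in 2 of the 27 methylated ones (7.41%), against 17.1% of the members with 40 to 49 CpGs. The E-box CACGTG was present in 20.8% of all members and 22.2% of the methylated ones. The NRF1 motif, the cAMP response element TGACGTCA and the YY1 motif were in 1.96%, 3.44% and 2.21% of all members and in none of the 27. The promoter of *Sycp3* printed above holds GCGGGAA 1 time and CACGTG 2 times, and that of *Gm51464* holds CACGTG 1 time. The printed middle of the methylated tile near *Gm26788* holds GCGGGAA 1 time.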

How the data were processed

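Spermatogonia at P7 of 3 genotypes were analysed, with 1 deposited list of CpG sites per genotype (WT, *Pld6* KO, *Dnmt3l* KO). Per the methods, the authors prepared libraries by post-bisulfite adaptor tagging (PBAT), sequenced single ends of 100 bp, removed the first 6 and last 15 bases and bases with a quality under 30, and aligned what was left to mm10. The aligner, Bismark, is named in the submitters' processing notes, and its version and the treatment of duplicate reads are not given in the sources used here. Each deposited list gives, per CpG site, a fraction (the methylation level computed by the authors) and the numbers of calls of either kind as counts. The fraction followed from the counts at all sites and was not used further. In all there were 43757722, 64076569 and 19289688 calls for WT, *Pld6* KO and *Dnmt3l* KO.

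Calls were pooled per tile of 1 kb. Starts were those of RefSeq mRNAs and noncoding RNAs, curated and predicted, on GRCm38.p6, and every listed autosomal site lay at a CG of this reference. Levels have 95% Wilson intervals and differences have Newcombe intervals. With 1 list of sites per genotype no test was made. A tile was called methylated at 0.5 or more and lower at a difference of 0.3 or more. Tiles were named by every gene with a start within 2 kb, the nearest first. Named tiles needed 20 calls in each library and were the 10 highest in WT, the 5 largest and 5 smallest differences between WT and *Dnmt3l* KO among methylated ones, the 5 largest differences in each direction in *Pld6* KO, the 5 highest in a mutant among those under 0.2 in WT, and the genes of the lists. *Pld6*, *Sfi1*, *C230057M02Rik*, *Wnt3*, *Hyal2* and *Celsr2* were named in addition after their values were seen, as were the tiles counted by name. The members and lists were chosen with earlier results of these data known. *Nespas* and *Dnmt3c* were not analysed here.

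Alternatives changed the minimum of calls, the number of CpGs, the distance, the pooling, the tile grid, the sites of over 20 calls and the thresholds. Starts of curated transcripts only and leaving out the *Sfi1* or the *Pld6* tile were added after the data had been seen. The calls and intervals were tested on simulated data. Python 3.11.15, numpy 2.4.6, pandas 2.3.3 and matplotlib 3.10.9 were used.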

Additional observations from a re-analysis of the deposited data

How the results depend on the processing

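The order of the pooled levels, *Dnmt3l* KO below WT below *Pld6* KO, was kept under each of the 11 settings that give a level. Values are given as WT, *Pld6* KO and *Dnmt3l* KO. The pooled levels were 0.00665, 0.00887 and 0.00436 with at least 60 CpGs, 0.0106, 0.0132 and 0.00517 within 0.5 kb of a start, 0.0110, 0.0132 and 0.00529 as the mean of site levels, 0.0114, 0.0149 and 0.00545 without sites of over 20 calls, 0.0114, 0.0149 and 0.00545 without the *Sfi1* tile, and 0.0118, 0.0148 and 0.00558 with starts of curated transcripts only. With tiles moved by 0.5 kb, WT was at 0.0129 and *Pld6* KO at 0.0166. Methylated tiles numbered 1, 2 and 1 with at least 60 CpGs, 6, 8 and 2 within 0.5 kb, 42, 50 and 10 with tiles moved, 14, 16 and 3 with curated starts, and 42, 52 and 11 at a level of 0.3. At a level of 0.8 they numbered 16 in WT and 0 in *Dnmt3l* KO. Tiles lower than WT numbered 1 in *Dnmt3l* KO and 0 in *Pld6* KO with at least 60 CpGs, 49 and 1 with tiles moved, 15 and 1 with curated starts, 55 and 4 at a difference of 0.2, and 18 and 0 at 0.5. They numbered 6 in *Dnmt3l* KO within 0.5 kb and 1 in *Pld6* KO by site levels. Settings with more CpGs, a smaller distance or curated starts hold fewer tiles, and the cause of the other changes was not tested. No paired analysis was possible because 1 list of sites per genotype was analysed, and no library could be left out for the same reason. The depth of *Dnmt3l* KO, with a median of 60 calls per tile, sets the width of its intervals.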
